A study of Mus musculus with 2 samples.

Results

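The genes described here are those whose mouse symbol begins with Kif or Cenp, that is the kinesin motors and the centromere proteins, and they were chosen by symbol with their signals on both arrays already known. Of 22180 genes read by a probe set that names exactly 1 gene, 64 met the rule, 44 Kif and 20 Cenp genes on 67 probe sets. Gene expression was measured in naive mouse CD8+ T cells stimulated in culture with beads carrying antibodies to CD3 and CD28, in recombinant human interleukin-2 at 100 U/mL. The treated group received bezafibrate, a fibrate drug that activates the peroxisome proliferator-activated receptors, at 30 µM from beginning to end of culture, and the control group received its solvent, dimethyl sulfoxide (DMSO). The labels name expanded cells on 13, without a unit, for assays of proliferation and apoptosis, and do not say when the RNA for the arrays was taken. Strain, sex, age and number of mice are not stated in them. Each group is 1 array of total RNA, so no spread between replicates was measured, no test was made, and a ratio sets 1 array against another.

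The label fits most but not all of the 64 genes. Kifap3 and Kifbp encode partners of kinesins rather than motors, Kif4-ps is a pseudogene, and Cenpj encodes a protein that builds centrioles. Cenpe, although named for the centromere, encodes a kinesin. The members were therefore described as 11 mitotic kinesins, 5 other kinesins with a part in division, 17 transport kinesins, 8 kinesins of cilia and signalling, 2 kinesin partners, 16 centromere proteins, 4 further Cenp genes and the pseudogene.

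Kinesins are motors that burn ATP to walk along microtubules or to take their ends apart. In interphase, transport kinesins carry organelles and vesicles, and most are best known from neurons and cilia; in mitosis another set builds the spindle, moves chromosomes and prepares the cleavage of the cell. Centromere proteins form the platform on the chromosome, built on nucleosomes that contain the histone variant encoded by Cenpa, to which the kinetochore and so the spindle attach. Mitotic kinesins and many kinetochore genes are transcribed in a burst before mitosis. Their promoters are known for the cell cycle genes homology region (CHR), a short element bound by the DREAM and MuvB complexes, often found near CCAAT boxes bound by NF-Y. T cells stimulated through CD3 and CD28 with interleukin-2 divide rapidly.

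The promoters show how differently the groups are built. RefSeq promoter windows of the mouse assembly GRCm38.p6, from 250 bases before to 50 bases after a gene's start, were at hand for 55 of the 64 members. Both strands were searched for the CHR core TTTGAA, which reads TTCAAA on the other strand, and for CCAAT, which reads ATTGG. Of 10 mitotic kinesins with a window, 9 held the CHR core, against 1 of 11 transport kinesins and 4 of 16 centromere proteins. Other division genes with a window held it too, 8 of 12 of the outer kinetochore and 8 of 12 of spindle assembly and midzone. So did 4 of 6 condensin genes and 4 of 7 regulators of mitotic entry. It was in 4 of 9 spindle checkpoint genes and 2 of 5 other division kinesins. Among all 27025 genes of the promoter table the share was 20.2%, and among all 32851 windows 17.9%. Within 50 bases before and 30 bases after the start, 7 of 10 mitotic kinesins and 1 of 11 transport kinesins held it. So did 3 of 16 centromere proteins and 4.71% of all genes. In this span it was in 7 of 12 spindle assembly and midzone, 4 of 12 outer kinetochore and 1 of 6 condensin genes. That narrower span was set after the positions were seen. CCAAT was in 6 of 10 mitotic kinesins, 3 of 11 transport kinesins, 11 of 16 centromere proteins and 41.1% of all genes. A match is a description of letters and not a shown binding site. In Cenpw the matches of both motifs share a base. No window was found for Kif20a, Kif5a, Kif5b, Kif13b, Kif21b, Kifc2, Kifc3, Kif19a and Kif4-ps.

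The sequences of 10 members with a CHR core close to the start follow, from 60 bases before to 28 bases after the start, with the core in capitals on the strand of the gene. In 14 members the core lay this close to the start, in either orientation. The 10 were picked from them by hand. The 4 not printed are the transport kinesin Kif1a, with the core at −44, Kif26b and Cenpn at −9 and Cenpw at −25. Cenpn and Cenpw, like the printed Cenpa, are centromere proteins. Kif20b, the mitotic kinesin with the highest ratio between the arrays, holds 2 cores end to end, and Kifc1, with the lowest ratio of any Kif gene, also holds 1.
Kif11, GRCm38.p6 chr19:37376322-37376409, + strand: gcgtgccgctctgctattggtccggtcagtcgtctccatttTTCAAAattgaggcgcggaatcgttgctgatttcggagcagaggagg
Kif15, GRCm38.p6 chr9:122951021-122951108, + strand: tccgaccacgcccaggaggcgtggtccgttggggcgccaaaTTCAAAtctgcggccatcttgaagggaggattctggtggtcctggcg
Kif22, GRCm38.p6 chr7:127042393-127042480, - strand: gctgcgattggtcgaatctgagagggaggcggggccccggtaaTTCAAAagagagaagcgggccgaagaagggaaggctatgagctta
Kif23, GRCm38.p6 chr9:61946772-61946859, - strand: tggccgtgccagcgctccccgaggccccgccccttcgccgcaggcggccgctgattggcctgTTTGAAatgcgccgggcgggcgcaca
Kif18b, GRCm38.p6 chr11:102925097-102925184, - strand: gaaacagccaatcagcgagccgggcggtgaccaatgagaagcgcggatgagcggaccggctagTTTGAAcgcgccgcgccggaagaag
Kif20b, GRCm38.p6 chr19:34922298-34922385, + strand: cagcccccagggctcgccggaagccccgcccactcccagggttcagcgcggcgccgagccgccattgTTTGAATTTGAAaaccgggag
Kif4, GRCm38.p6 chrX:100626005-100626092, + strand: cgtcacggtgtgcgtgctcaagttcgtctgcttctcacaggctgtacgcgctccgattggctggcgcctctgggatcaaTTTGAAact
Kifc1, GRCm38.p6 chr17:33890606-33890693, - strand: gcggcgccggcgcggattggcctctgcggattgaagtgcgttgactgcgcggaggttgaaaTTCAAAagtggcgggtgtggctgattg
Cenpa, GRCm38.p6 chr5:30666826-30666913, + strand: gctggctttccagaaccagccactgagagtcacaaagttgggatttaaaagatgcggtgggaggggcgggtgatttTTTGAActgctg
Cenpf, GRCm38.p6 chr1:189688059-189688146, - strand: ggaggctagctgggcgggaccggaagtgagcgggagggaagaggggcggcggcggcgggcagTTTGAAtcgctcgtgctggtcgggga

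Counted from the gene's start, with −1 the last base before it, the core began at −19 in Kif11 and Kif15, at −17 in Kif22, at 3 in Kif23 and Cenpf and at 4 in Kif18b. It began at 20 in Kif4. In Kif2c and Kif14 the only core began farther out, at −103 and −228, and Kif18a and Cenpe had none in their windows.

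**Figure D1:**
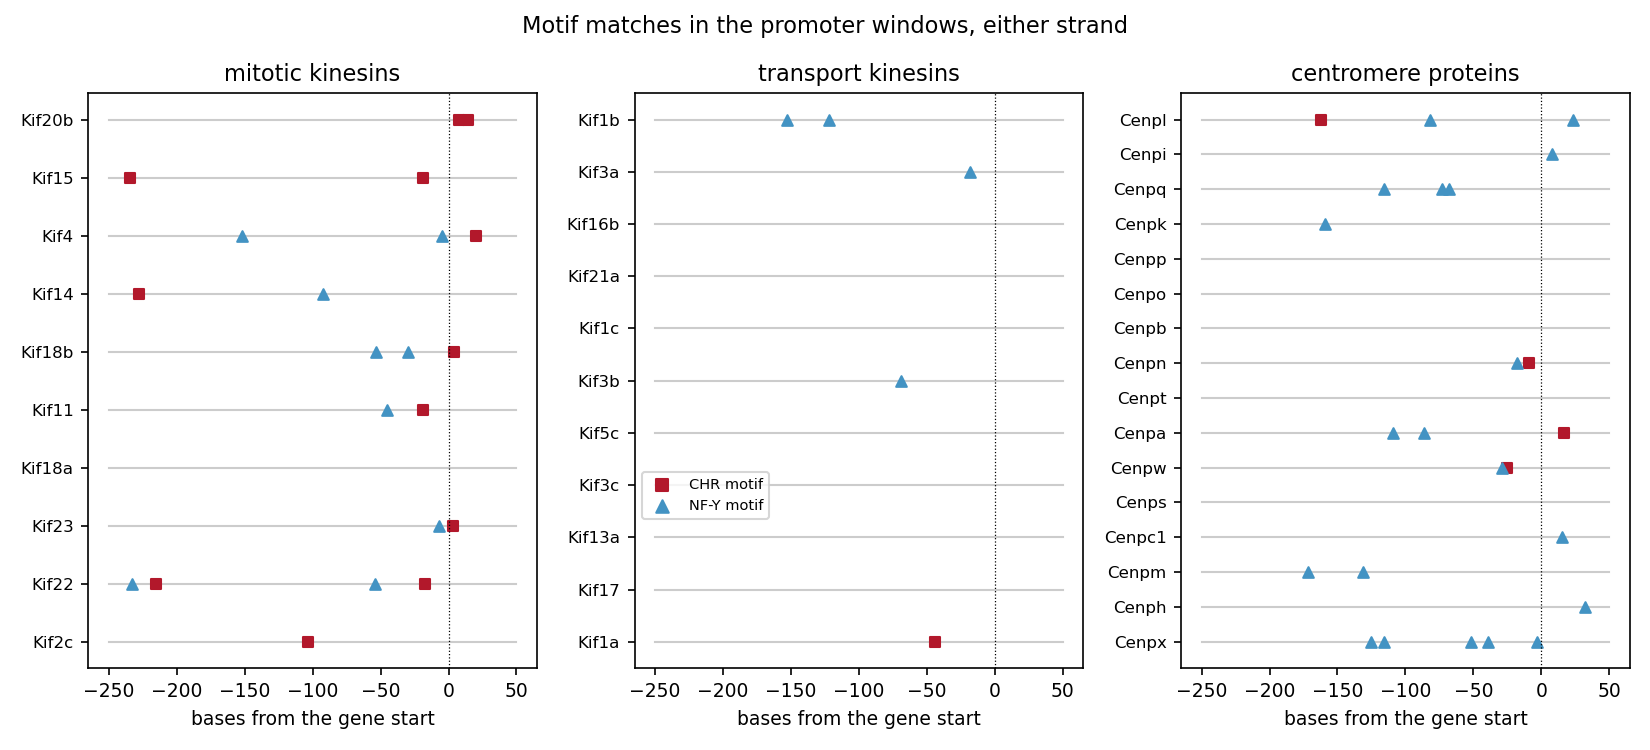
Positions of the CHR motif (squares) and the NF-Y motif (triangles) in the first promoter window of each mitotic kinesin, transport kinesin and centromere protein, in bases from the gene start; grey lines are the window of 250 bases before to 50 bases after the start, and genes run from the lowest log2 ratio at the bottom to the highest at the top. The squares of 7 mitotic kinesins lie close to the start, while among 11 transport kinesins the square of Kif1a is the only one.

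The deposited values are log2 signals. The background limit was the 95th percentile of 1394 odorant and pheromone receptor genes (Olfr and Vmn), which are silent outside sensory tissue for the most part. It was 4.71 with DMSO and 4.68 with bezafibrate. All 11 mitotic kinesins and 20 of 20 Cenp genes exceeded it on both arrays, as did 11 of 17 transport kinesins and 4 of 8 kinesins of cilia and signalling. A second limit, the floor, was the median of all genes on the array where a gene was brighter, 4.88 with DMSO and 4.85 with bezafibrate, and 52 members lay above it. In such bulk RNA, a lower signal from fewer cells of a kind and from less RNA per cell cannot be told apart.

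The markers of CD8 T cells fitted the labelled cell type. Of 11 listed markers 9 had a value and all 9 exceeded background on both arrays, with Cd3e at 11.10 and 11.05 and Cd8a at 10.82 and 10.68 on the DMSO and bezafibrate arrays. Their median log2 ratio was −0.14. Of 6 neuron markers, 2 exceeded background on both arrays, Rbfox3 at 5.62 and 4.77 and Syp at 5.35 and 5.19. Their summed linear signal was 169 with DMSO and 136 with bezafibrate. B cell markers exceeded it in 2 of 5 cases, Cd79b and Ighm (summed 617 and 495), and macrophage markers in 2 of 6, Cd68 and Csf1r (summed 189 and 190.0). Natural killer cell markers exceeded it in 2 of 4, Eomes, which activated CD8 T cells also express, at 10.56 and 10.59 and Fcer1g at 6.57 and 5.64 (ratio −0.93; summed over the 4, 1633 and 1624). So did 2 of 3 CD4 T cell markers (summed 82.8 and 96.7). For the CD8 T cell markers the sums were 10758 and 9766. All 5 measured markers of dividing cells exceeded it, and 3 were higher and 2 lower, with a median ratio of 0.04. Mki67, at 10.79 and 11.07, and Top2a had ratios of 0.28 and 0.25, Aurkb 0.04, Plk1 −0.06 and Cdk1 −0.12, and the summed linear signal was 5113 with DMSO and 5679 with bezafibrate. The part of the share of dividing cells in the ratios of the members was not tested.

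**Figure D2:**
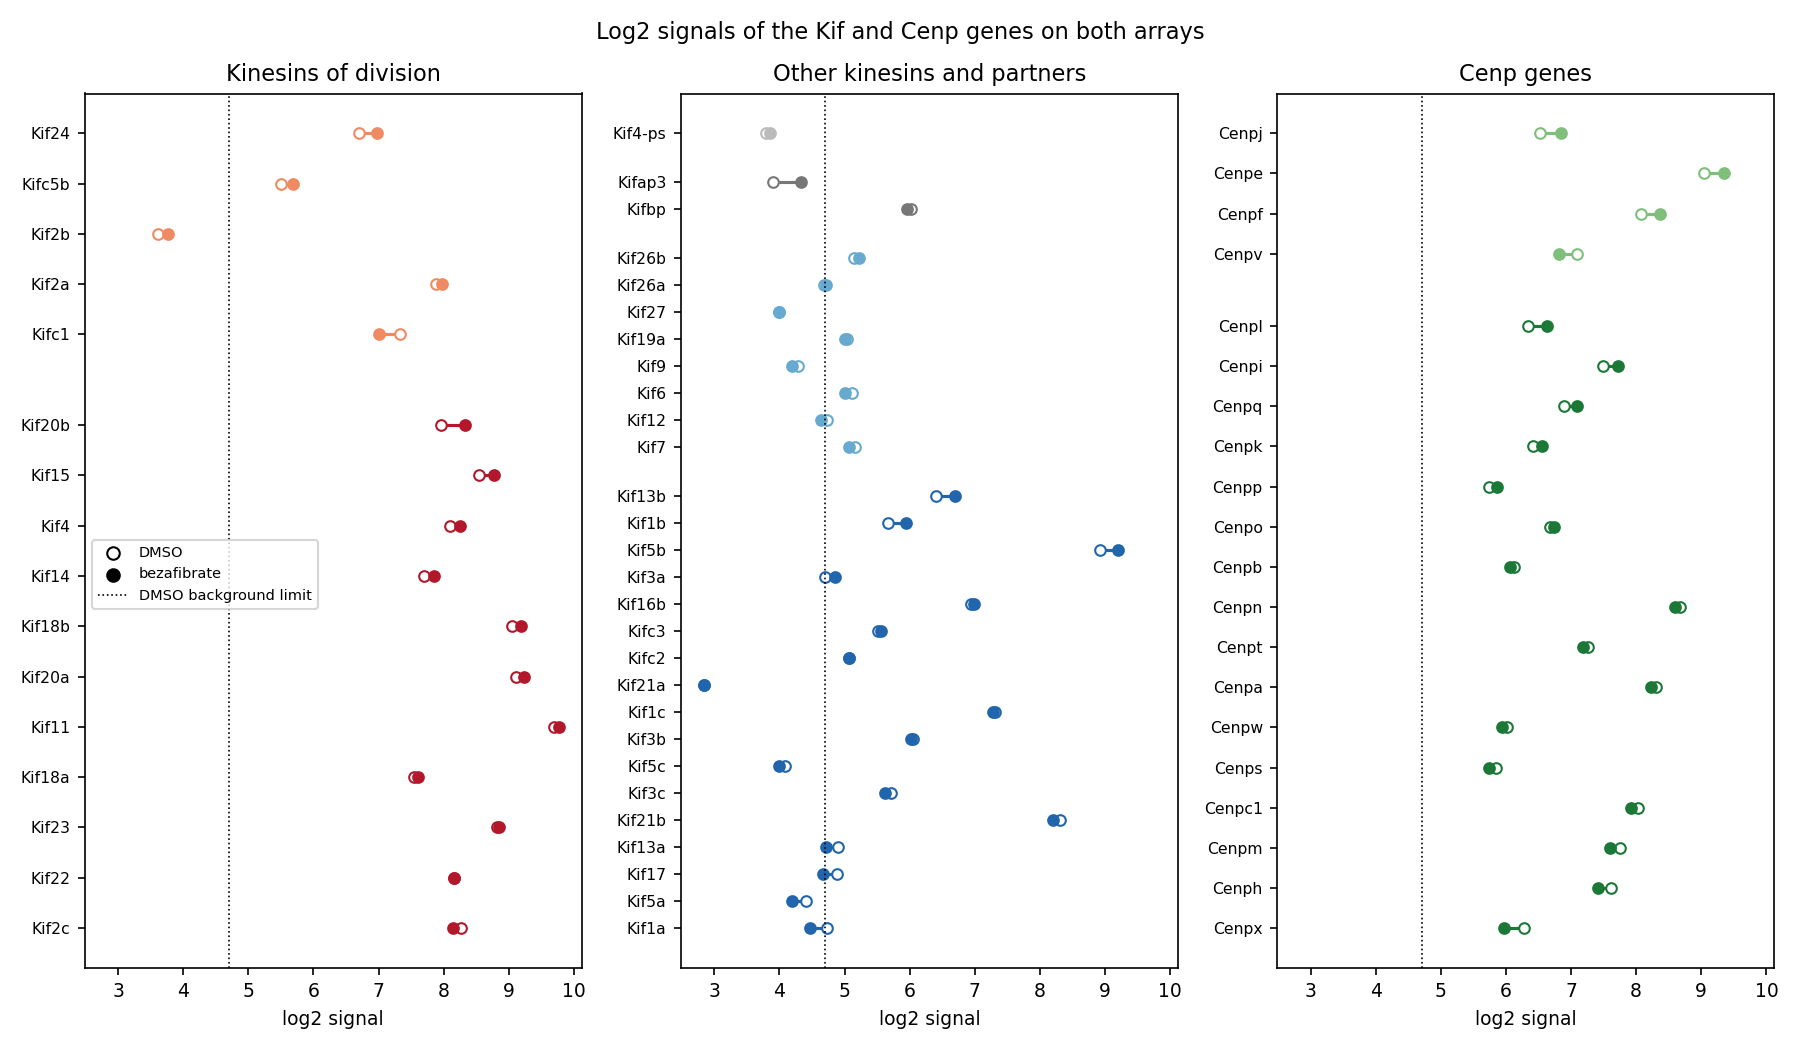
Log2 signal of each of the 64 members with DMSO (open points) and with bezafibrate (filled points), joined by a line and coloured by group; the dotted line is the background limit of the DMSO array, 4.71. All mitotic kinesins and Cenp genes lie to its right on both arrays, and the distance between the points of a gene never reaches 1.5-fold.

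Most mitotic kinesins were slightly higher with bezafibrate. Bezafibrate gave the higher value for 9 of 11 and the lower for 2; the log2 ratios had their median at 0.13 and ranged from −0.12 to 0.36. Among genes above the floor, 48.5% were higher by any amount, and their median ratio was 0.00. Kif20b was the 1 mitotic kinesin past 1.2-fold on the higher side, and 0 were past it on the lower side. The shares past 1.2-fold among genes above the floor were 9.59% on the higher and 10.4% on the lower side. The central 95% of ratios above the floor ran from −0.42 to 0.41, and every mitotic kinesin lay inside that span.

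Kif20b (probe set 17358838), a motor of the late spindle and the cell bridge, read 7.96 with DMSO and 8.32 with bezafibrate, 1.28-fold higher. Its relatives that organise the central spindle for cleavage were closer together. Kif20a (probe set 17349433), which carries Aurora B to the midzone, read 9.10 and 9.23, and Kif23 (probe set 17527934), the motor subunit of centralspindlin, 8.82 and 8.85. All 3 members of this family, kinesin-6, were thus on the higher side, by ratios from 0.03 to 0.36.

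The motors that push spindle poles apart differed little. Kif11 (probe set 17359020), the bipolar motor that slides antiparallel microtubules, read 9.69 with DMSO and 9.77 with bezafibrate, a ratio of 0.08. Kif15 (probe set 17523494), which can take over part of this task, read 8.54 and 8.77, 1.17-fold higher and second among the mitotic kinesins.

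The motors of chromosome arms and of cytokinesis were close between the arrays. Kif4 (probe set 17536566), which works with condensin on chromosome arms and with Prc1 at the midzone, read 8.09 and 8.25, a ratio of 0.15. Kif22 (probe set 17496568), the other chromosome arm motor, read 8.16 and 8.15, a ratio of 0.00 at 2 decimals. Kif14 (probe set 17217789), which recruits citron kinase for cytokinesis, had 7.69 and 7.85, also a ratio of 0.15.

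Among motors that control the length of spindle microtubules, Kif18a (probe set 17374058) read 7.55 and 7.61 and Kif18b (probe set 17270369) 9.05 and 9.19. Kif2c (probe set 17428803), the depolymerase that corrects wrong attachments, was the lowest mitotic kinesin, at 8.26 with DMSO and 8.14 with bezafibrate, a ratio of −0.12. Its relative Kif2a, which acts at spindle poles, read 7.88 and 7.98. Kif24, which restrains cilium growth at the mother centriole, read 6.71 and 6.97, a ratio of 0.27. Kif2b lay within background at 3.62 and 3.76.

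Kifc1 (probe set 17343652), the minus-end motor that gathers spindle poles, went the other way from most division motors. It read 7.33 with DMSO and 7.01 with bezafibrate, 1.25-fold lower, and had the lowest ratio of the 44 Kif genes. Its close relative Kifc5b read 5.50 and 5.68, a ratio of 0.18. The sequences of these genes are alike, so how their signal is shared out between the probe sets is uncertain, and that was not tested.

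**Figure D3:**
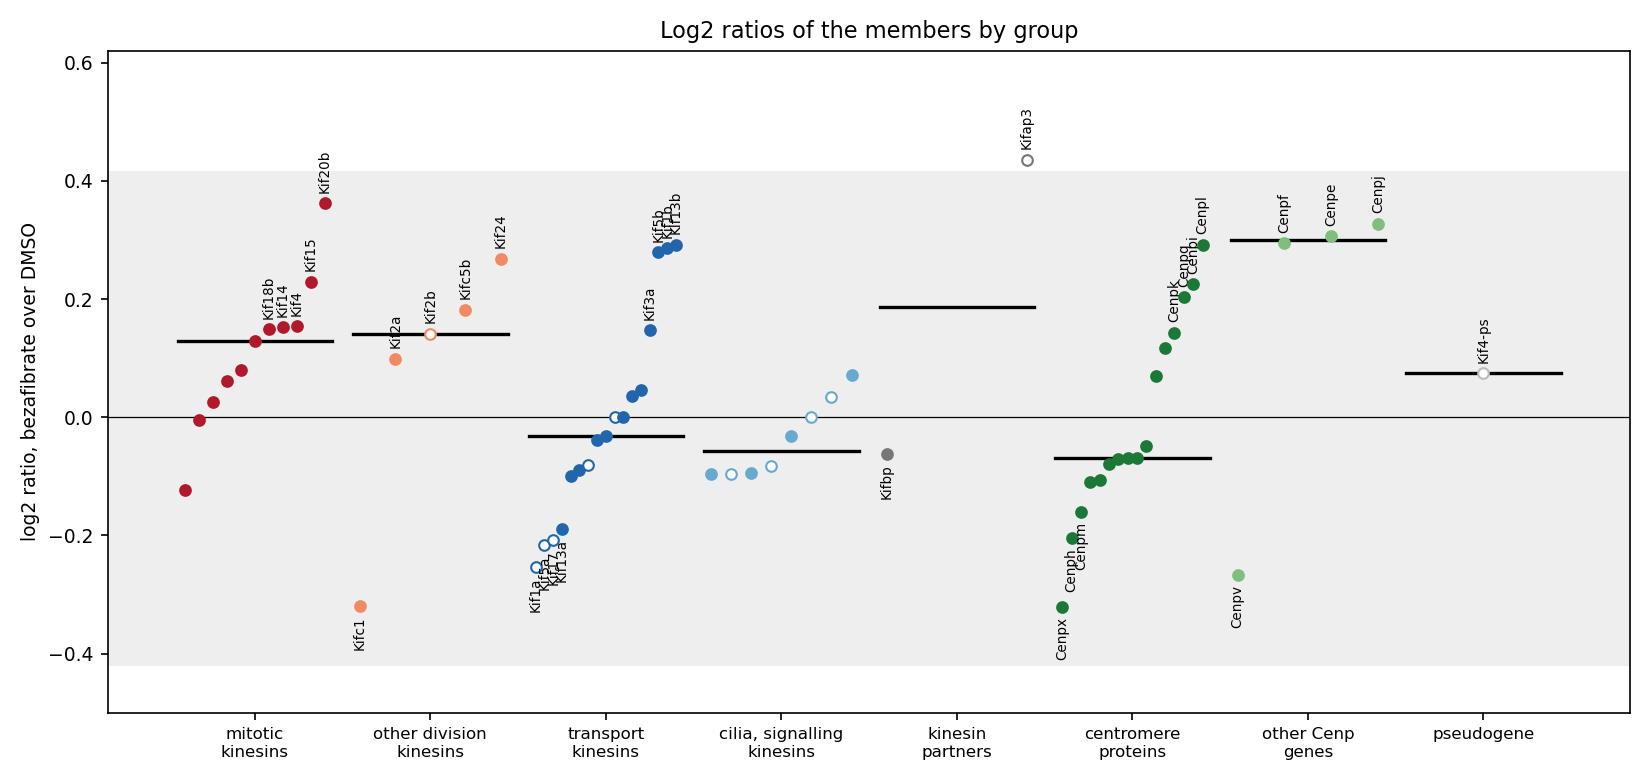
Log2 ratio of bezafibrate over DMSO for each member by group; filled points lie above the floor, open points below it, black bars are group medians and the grey band is the central 95% of all genes above the floor, −0.42 to 0.41. Kifap3, an open point below the floor at 0.44, is the only member outside the band, and the mitotic kinesins have their median at 0.13 against −0.03 for transport kinesins and −0.07 for centromere proteins.

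Transport kinesins had no common direction. Higher values with bezafibrate were found for 6 of 17, lower for 9 and equal for 2; the median was −0.03 and ratios ranged from −0.25 to 0.29; 44.7% of all genes were higher by any amount. Of these kinesins 3 were at least 1.2-fold higher, Kif5b, Kif1b and Kif13b, and 0 at least 1.2-fold lower, against 11.1% and 13.8% of all genes. The difference of medians, mitotic minus transport kinesins, was 0.16 on the log2 scale. With only the 12 transport kinesins above the floor, the transport median was 0.02 and the difference 0.11.

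Kif5b (probe set 17352462), the conventional kinesin heavy chain found in most cells, read 8.92 with DMSO and 9.20 with bezafibrate, 1.21-fold higher. A second, dim probe set of Kif5b read 4.32 and 4.22, a ratio of −0.10. Its neuronal relatives Kif5a, at 4.40 and 4.19, and Kif5c, with a ratio of −0.08, lay within background on both arrays. The signal above background of this family, kinesin-1, thus came from Kif5b alone.

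In kinesin-3, a family of vesicle and organelle carriers, Kif13b read 6.41 and 6.70, 1.22-fold higher, and Kif1b 5.66 and 5.95, 1.22-fold higher. Kif1c read 7.32 and 7.29 and Kif16b, an endosome motor, 6.95 and 6.99. Kif13a was lower at 4.90 and 4.72, close to background, and Kif1a, the synaptic vesicle motor, at 4.73 and 4.48, with the second value within background. The ratios of the family therefore ran from −0.25 to 0.29, with 3 higher and 3 lower.

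The motors of kinesin-2, known for transport in cilia, differed by less. Kif3b read 6.06 and 6.02 and Kif3c 5.72 and 5.63. A probe set that names both Kif3c and 1110002L01Rik had a ratio of 0.14, opposite in sign to the −0.09 of the probe set for Kif3c alone. Kif3a read 4.71 and 4.85 and Kif17 4.88 and 4.67, both near background. Kifap3, the accessory subunit that joins cargo to these motors, had the highest ratio of all 64 genes, 0.44 (1.35-fold), but at 3.90 and 4.34 it was within background on both arrays. Kifbp, a regulator that binds several kinesins, read 6.02 and 5.96.

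Kif21b, a motor that restrains microtubule growth and is known at the immune synapse of T cells, read 8.31 and 8.21, a ratio of −0.10. Its relative Kif21a was within background with equal values. Kifc3 read 5.52 and 5.55, and Kifc2 had the same value, 5.07, on both arrays.

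Kinesins of cilia and signalling read low. Those above the floor were Kif7, which acts in Hedgehog signalling, at 5.16 and 5.06, Kif6 at 5.11 and 5.01, Kif19a at 5.04 and 5.01 and Kif26b at 5.15 and 5.22. The other 4, Kif9, Kif12, Kif26a and Kif27, read from 3.99 to 4.74 with DMSO. The 8 genes had ratios from −0.10 to 0.07, and 0 were 1.2-fold apart in either direction. Of all genes, 11.1% were at least 1.2-fold higher and 13.8% at least 1.2-fold lower, so 0 of 8 says little.

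Over all 64 members 32 were higher, 29 lower and 3 equal, and the median ratio was 0.01. At 1.2-fold 10 of 64 were higher, where 11.1% of all genes were, and 3 lower, where 13.8% were; the 3 were Cenpx, Kifc1 and Cenpv. Of the 52 above the floor, 9 were higher and 3 lower by this limit, where the shares of genes above the floor were 9.59% and 10.4%. No member was 1.5-fold apart, against 1.28% of all genes at least 1.5-fold higher and 1.24% at least 1.5-fold lower. The 12 members below the floor were Kif1a, Kif5a, Kif5c, Kif17, Kif21a, Kif2b, Kif9, Kif12, Kif26a, Kif27, Kifap3 and Kif4-ps.

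Centromere proteins had no common direction. Of 16, 10 were lower and 6 higher, where 5679 of the 11438 genes above the floor were lower and 5544 higher; the median of their ratios was −0.07 and the mean −0.01. Against their like genes, those in the same class of level and length, 9 of 16 stood higher. Cenpl was past 1.2-fold on the higher side and Cenpx on the lower, 1 of 16 each, where 9.59% and 10.4% of genes above the floor were. The difference of medians, mitotic kinesins minus centromere proteins, was 0.20.

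The base of the centromere differed little. Cenpa (probe set 17435825), the histone H3 variant that marks the centromere, read 8.30 with DMSO and 8.23 with bezafibrate, a ratio of −0.07. Cenpb, which binds a repeat motif of centromeric satellite DNA, read 6.12 and 6.07, and Cenpc1 (probe set 17449155), which links Cenpa nucleosomes to the outer kinetochore, 8.03 and 7.92. All 3 were on the lower side by 1.08-fold or less.

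The histone-fold group, whose members pair on DNA and reach out to the kinetochore, was lower in 4 of 4 genes. Among the 11438 genes above the floor 5679 were lower. Cenpx (probe set 17273280) read 6.28 with DMSO and 5.96 with bezafibrate, 1.25-fold lower and the lowest ratio of all members, −0.32. Cenps, its partner in this group and in DNA repair, read 5.85 and 5.74, Cenpw 6.01 and 5.93, and Cenpt 7.26 and 7.19. These are short genes, with Cenpx at 2955 bp. Their like genes had median ratios of −0.08 for Cenpx, −0.06 for Cenps, −0.07 for Cenpw and −0.10 for Cenpt. Less those medians, Cenpx stood at −0.24, Cenps at −0.05, Cenpw at −0.004 and Cenpt at 0.03.

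In the group with Cenpo, Cenpp and Cenpq, which holds regulators of attachment, 3 of 3 members were higher with bezafibrate. Their median ratio was 0.12, against 0.07 for their like genes, and 48.5% of genes above the floor were higher. Less the like genes' medians, Cenpq stood at 0.25, but Cenpo at 0.003 and Cenpp at 0.004. Cenpq read 6.89 and 7.10, a ratio of 0.20, Cenpp 5.74 and 5.86, and Cenpo 6.67 and 6.74. A brighter probe set that names both Adcy3 and Cenpo had a ratio of −0.19, so the direction of Cenpo depends on which is read. Itgb3bp, which encodes another subunit of this group, CENP-R, and is no member by its symbol, read 5.35 and 5.31, a ratio of −0.04. Cenpu, also of this group, was read only by 2 probe sets that also name Primpol, with ratios of 0.00 and 0.28.

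The other inner kinetochore genes had no shared direction. Cenpl read 6.34 with DMSO and 6.63 with bezafibrate, 1.22-fold higher, while Cenpn, its direct partner and a reader of Cenpa nucleosomes, read 8.67 and 8.60. Cenpi had a ratio of 0.22, and Cenpk read 6.41 and 6.56, whereas Cenph read 7.61 and 7.41 and Cenpm 7.76 and 7.60. The last 4 work as 1 complex and split 2 against 2, with ratios from −0.20 to 0.22.

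The large proteins that join the kinetochore late were both higher. Cenpe (probe set 17402797), the kinesin that carries chromosomes to the spindle equator, read 9.04 with DMSO and 9.35 with bezafibrate, 1.24-fold higher. Cenpf (probe set 17230918), a coiled-coil protein that binds dynein regulators and microtubules, read 8.07 and 8.36, 1.23-fold higher. Cenpj, the centriole protein, was 1.25-fold higher at 6.52 and 6.85. Cenpv, named for the centromere and also found at the spindle midzone, read 7.08 and 6.82, a ratio of −0.27.

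Longer members tended to have higher ratios, and so did genes at large. Over the 64 members Spearman's rho between ratio and gene length was 0.28, over the 52 above the floor 0.40, and over 11422 genes above the floor with a length 0.28; genes are not independent replicates and share both arrays. Of 22 members under 20000 bp, 7 were higher and 14 lower, with a median of −0.07. Of 23 members of 50000 bp and over, 16 were higher and 5 lower, with a median of 0.10. The like genes of the same members had medians of −0.05 and 0.09.

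After subtraction of the like genes' median ratio, the mitotic kinesins had a median of 0.05, the transport kinesins −0.05 and the centromere proteins 0.00. Of the mitotic kinesins 9 of 11 stood above their like genes, of the transport kinesins 5 of 17 and of the centromere proteins 9 of 16, against 48.7% of all genes with a length. The gap between mitotic and transport kinesins then fell to 0.10 and that between mitotic kinesins and centromere proteins to 0.04. At 1.2-fold 3 members were then higher, Kifap3, Cenpl and Kif20b, and 1 lower, Kifc1. Kifap3 was within background on both arrays. The share of all genes past 1.2-fold after this subtraction was not computed, so these counts cannot be set against it. The part of gene length in these ratios was not tested.

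Less their like genes, the mitotic kinesins ran from Kif2c at −0.11 to Kif20b at 0.28, and Kif20a and Kif18a fell between. Kif20a is 8654 bp long, its ratio was 0.13, and its like genes had −0.08, so it stood 0.21 above them. Kif18a, of 61012 bp, had a ratio of 0.06, below the 0.10 of its like genes.

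**Figure D4:**
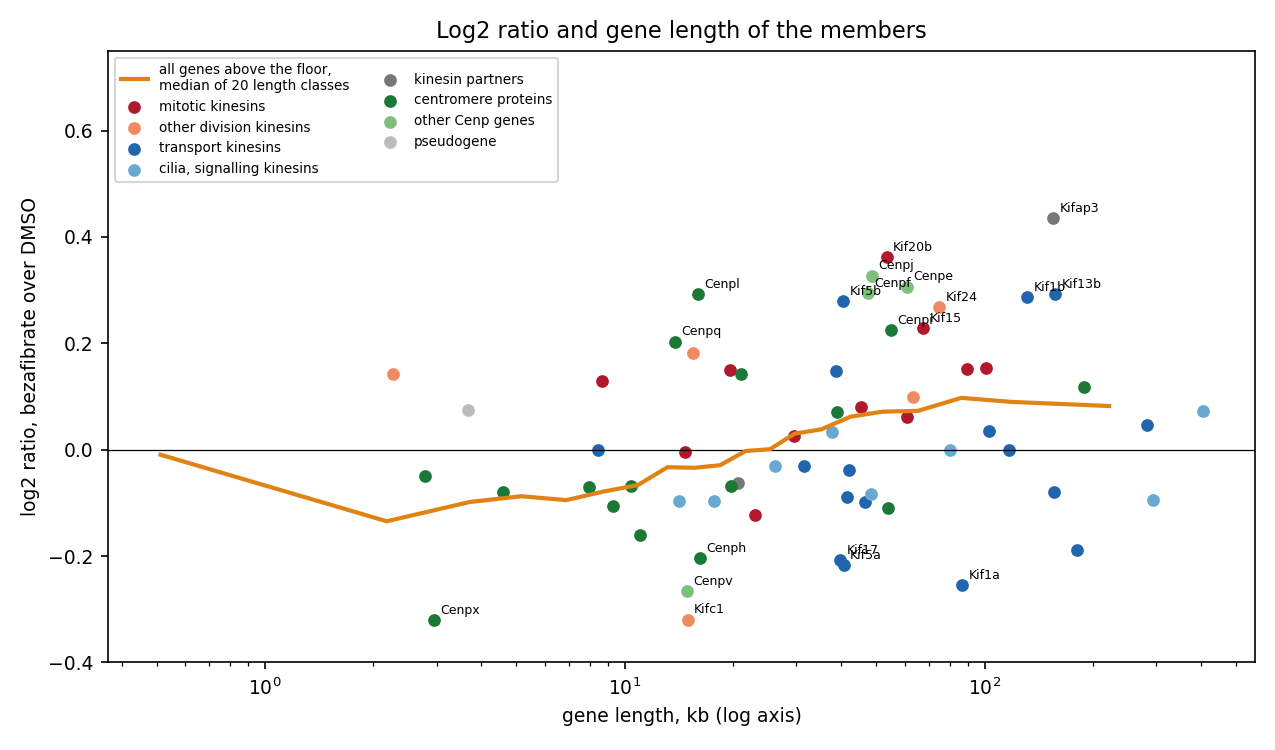
Log2 ratio of bezafibrate over DMSO against gene length in kb on a log axis for the 64 members, coloured by group and named beyond 0.2 in either direction; the orange line joins the medians of 20 length classes of all genes above the floor. The line falls from −0.01 in the shortest class to −0.13, then mostly climbs to 0.10 and ends at 0.08. Members spread around it, with Cenpl, Kif20b and Kifap3 above and Kifc1 and Cenpx below.

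The genes that work with these motors and centromere proteins were read from lists. Outer kinetochore genes were higher in 11 of 16 cases and lower in 4, with a median of 0.12. Among genes above the floor 48.5% were higher. Less their like genes the median was 0.14, with 13 of 16 above them. At 1.2-fold 2 of 16 were higher and 1 lower, beside the 9.59% and 10.4% of genes above the floor. Highest were Spdl1, the adaptor that brings dynein to kinetochores, at 0.31 and Zwilch of the corona complex at 0.29, and lowest Pmf1 at −0.34 and Spc24 at −0.26. The spindle checkpoint genes were higher in 5 of 9, beside the same 48.5%, with a median of 0.06. Ratios ran from Bub1b at 0.20 and Mad1l1 at 0.12 to Bub1 at −0.08 and Mad2l1 at −0.13. Less their like genes the median was 0.01, with 6 of 9 above them. The subunits of the chromosomal passenger complex, the Aurora B module that Kif20a carries, had ratios of 0.14 for Incenp, 0.11 for Birc5, 0.04 for Aurkb and 0.01 for Cdca8. Of 2 genes that help to place the complex at centromeres, Sgo1 had 0.06 and Haspin was equal on both arrays. Mis18a, which acts in the loading of Cenpa, had a ratio of 0.04.

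Regulators of mitotic entry, a list of kinases and cyclins with the phosphatases Cdc25b and Cdc25c and the transcription factors Foxm1 and Mybl2, had lower values for 8 of 10 and higher for 2. The median was −0.08, from Nek2 at 0.15 and Mybl2 at 0.05 to Aurka and Ccnb2, each at −0.18. Among the 11438 genes above the floor 5679 were lower. Less their like genes the median of these regulators was −0.03, with 4 of 10 above them. None was 1.2-fold apart, where 9.59% of genes above the floor were higher and 10.4% lower by this limit. Spindle assembly and midzone genes were higher in 11 of 13, beside 48.5% of genes above the floor, with a median of 0.10. Ratios ran from Ckap5 at 0.26 and Prc1, the midzone bundler, at 0.20 to Tacc3 at −0.04 and Spag5 at −0.09. Less their like genes the median was 0.04, with 9 of 13 above them. Condensin genes were higher in 6 of 7, beside the same 48.5%, with a median of 0.16. Ratios ran from Ncapg2 at 0.44 and Ncapd2 at 0.19 to Ncaph at 0.05 and Ncaph2 at −0.10. Less their like genes the median was 0.08, with 5 of 7 above them.

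Partners of the transport motors were mixed. Kinesin light chains and cargo adaptors were higher in 8 of 10, where 44.7% of all genes were. Their median was 0.08, and that of genes of their level and length was also 0.08. Gene by gene, less their like genes, the median was 0.07, with 6 of 10 above them. Spag9, a scaffold that joins kinesin and dynein to cargo, had the highest ratio, 0.49 (7.28 and 7.77), followed by its relative Mapk8ip3 at 0.34, and those lowest above the floor were Klc4, which was equal, and Rhot1 at 0.02. Dynein and dynactin genes divided 8 higher against 9 lower, with a median of −0.01, from Nde1 at 0.25 and Dync1li2 at 0.19 to Dync1li1 at −0.31 and Dctn3 at −0.34. The tubulins, the track itself, were lower in 9 of 13, where 11098 of all 22180 genes were. Their median was −0.20, against −0.08 for genes of their level and length. Tuba8 at 0.18 and Tubb2b at 0.15 were highest and Tuba1a and Tubb4a lowest, each at −0.40; Tubb5 read 11.94 and 11.99. Tubulin genes are near-identical in sequence, so signal may be shared among them.

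**Figure D5:**
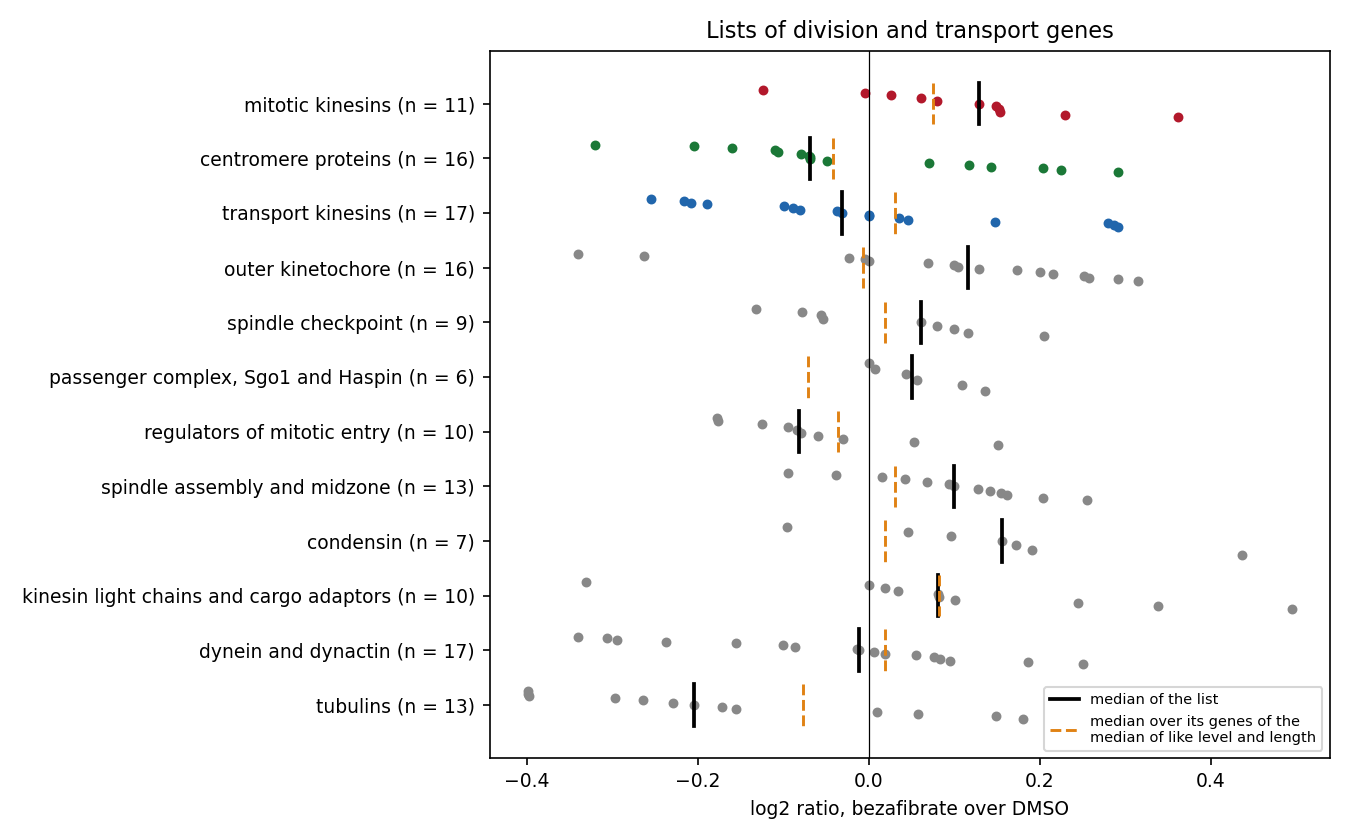
Log2 ratio of bezafibrate over DMSO for the genes of each list (points), the list's median (black bars) and the median over its genes of the like genes' median ratio (orange dashes). Mitotic kinesins, outer kinetochore, spindle assembly and condensin genes have their medians above 0. So do spindle checkpoint genes at 0.06, the passenger complex list at 0.05 and light chains and adaptors at 0.08. Regulators of mitotic entry at −0.08 and tubulins at −0.20 lie below it. Centromere proteins at −0.07, transport kinesins at −0.03 and dynein and dynactin at −0.01 also lie below it.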

How the data were processed

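In all 2 arrays were used, 1 for each group, with total RNA amplified by a whole-transcript kit from 100 ng, per the labels' protocols. The deposited values are log2 signals per probe set, and the submitters' processing notes name RMA and Affymetrix Expression Console, without versions or a build. RMA equalises the distributions of arrays processed together, so ratios are relative to other genes, and ratios of dim genes are understated. The number of arrays limits the precision, and microarrays give no read depth.

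Of 41801 probe sets, 33793 had values, and 1904 (5.63%) were equal on both arrays. Probe sets with 1 symbol in the platform annotation were used, and the brightest stood for a gene. The log2 ratio is bezafibrate minus DMSO. Gene lengths (22136 of 22180 genes) and promoters came from RefSeq GRCm38.p6 tables; no signal was placed by coordinates. Like genes are those in the same class of 10 classes of level by 10 of length. Members and lists, and the rule for named genes, were chosen with earlier results of these data known; the rule names every member above the floor and the 2 highest and 2 lowest of each related list. Python 3.11.15, numpy 2.4.6, pandas 2.3.3, statsmodels 0.14.6 and matplotlib 3.10.9 were used. The code for list medians and counts was checked on simulated data. The known shift there was larger than the median of the mitotic kinesins, so it is a check of the code only. Alternatives are in the closing section.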

Additional observations from a re-analysis of the deposited data

How the results depend on the processing

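With 1 array a group no value has a replicate error, so a median was counted as moved when it shifted by 0.05 or more on the log2 scale. The median of the mitotic kinesins stayed between 0.05 and 0.15 over its settings, and the gap to the transport kinesins between 0.10 and 0.17. Subtracting the like genes' median ratio gave 0.0481 for the mitotic kinesins, 0.0986 for mitotic minus transport kinesins, 0.0444 for mitotic kinesins minus centromere proteins and 3 members higher and 1 lower at 1.2-fold, and turned the centromere median to 0.0037. With only members above the floor the transport median turned to 0.0176. With the mean in place of the median, centromere proteins had −0.0116 and the gap to the mitotic kinesins was 0.12. Above the 75th percentile of level 6 members were 1.2-fold higher and 2 lower. At a 1.1-fold limit 20 were higher and 9 lower, and at 1.5-fold and 2-fold 0 were higher and 0 lower. At 1.5-fold 1.28% of all genes were higher and 1.24% lower. For the 1.1-fold and 2-fold limits, the 75th percentile and the subtraction, shares of all genes were not computed. Those counts therefore cannot be set against a share. Taking the probe set of smallest ratio turned Kif5b to −0.10. Quantile normalization, the loess curve and centring on housekeeping genes moved 0 of 64 members by 0.05 or more. No paired analysis was possible because each group has 1 array.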

Other observations

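Exact ties were about as frequent among the members as among all probe sets. Kif21a, Kifc2 and Kif27 had the same deposited value on both arrays, as did a second probe set of Kif7, so 4 of the 67 probe sets of the members were tied, against 5.63% of all probe sets. A dimmer probe set of Kif27 had a ratio of −0.36 (3.48 and 3.13), within background. Kif4-ps, the pseudogene of Kif4, was within background at 3.79 and 3.86.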
